A study of Mus musculus with 6 samples.

Results

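The genes described here are the Wnt ligands, their Frizzled (Fzd) receptors and co-receptors, the R-spondin agonists, the secreted Wnt inhibitors of the Sfrp and Dkk families, and Axin2. They were chosen by symbol alone, as the protein-coding genes of the Wnt, Fzd, Sfrp, Dkk and Rspo families together with Frzb, Wif1, Lrp5, Lrp6, Ror1, Ror2 and Axin2. This rule gave 48 of the 47069 genes counted. Of these, 19 were Wnt ligands, 10 Fzd receptors, 4 co-receptors, 4 R-spondins and 10 secreted inhibitors, and Axin2 stood alone as a target gene.

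RNA was sequenced from the inguinal subcutaneous white adipose tissue (SC-WAT) of 3 Egr1+/+ and 3 Egr1-/- mice, with 1 library per mouse. All were females of the C57BL/6 strain (a line kept on C57BL/6J), 2 weeks old. Egr1 encodes a zinc finger transcription factor. The Egr1-/- mice carried a germline null allele in every cell of the body, made by a LacZ insertion combined with a frameshift ahead of the DNA-binding domain, and the Egr1+/+ mice came from the same kind of heterozygous intercross. The comparison asked which RNAs differed in SC-WAT that lacked Egr1. Gene counts totalled 30633901 to 36875648 per mouse in the Egr1+/+ group, against 29661984 to 42357981 in the Egr1-/- group, with 50.0 to 57.4% and 54.9 to 66.3% of them on mitochondrial genes. Egr1 itself had 353, 241 and 711 counts in Egr1+/+ mice against 103, 84 and 57 in Egr1-/- mice, so the genotypes followed the labels. Skeletal muscle markers summed to 3022 CPM (read counts scaled to the size of each library) in Egr1+/+ replicate 2 and 2508 CPM in Egr1-/- replicate 3, and to between 116 and 1016 CPM in the other mice.

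Wnt ligands are secreted lipid-modified glycoproteins that bind Fzd receptors. With Lrp5 or Lrp6 they stabilise beta-catenin, which then acts with TCF/LEF factors in the nucleus, and with Ror1 or Ror2 they signal without beta-catenin. Sfrp proteins, Frzb and Wif1 bind the ligands, and Dkk proteins other than Dkk3 block Lrp5 and Lrp6. R-spondins raise the amount of receptor at the cell surface. In adipose tissue, Wnt/beta-catenin signalling is known to hold back the differentiation of preadipocytes.

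The secreted inhibitors Sfrp4, Sfrp2 and Dkk2 and the ligands Wnt2, Wnt10b and Wnt6 had lower CPM in all 3 Egr1-/- mice than in any Egr1+/+ mouse, without passing the adjusted threshold of the edgeR test. Of these, Wnt6 had a mean of only 12 counts and passed the filter on low counts largely through the Egr1+/+ mice. The most abundant receptor, Fzd4, and the co-receptors Lrp5 and Lrp6 overlapped between genotypes. Of the 33 members with enough counts to be tested, 23 were lower and 10 higher. The log2 fold change had a median of -0.16 over these members, against 0.0011 over all 17667 genes tested. This median was -0.27 without Egr1+/+ replicate 1, -0.0900 without Egr1+/+ replicate 2, -0.39 without Egr1-/- replicate 1 and -0.0478 without Egr1-/- replicate 2. Mean Sfrp4 in Egr1-/- mice was 31.5% of that in Egr1+/+ mice, Sfrp2 50.3%, Wnt2 51.2% and Dkk2 61.5%. No member had an adjusted p under 0.05 by the edgeR quasi-likelihood test, which called 3 genes, or 0.017%, of all those tested. This test gave Egr1 itself a log2 fold change of -2.19 with an adjusted p of 0.0879, so it did not call the targeted gene either. At an unadjusted p under 0.05 in this test, 7 of the 33 members (21.2%) were lower, against 5.6% of all genes, and 0 were higher, against 5.06%. The 7 became 4 without Egr1+/+ replicate 2, without Egr1-/- replicate 3 or without both. The alternative limma-voom test also called 0 members. DESeq2, which the authors used and which served here as another alternative, called 366 genes. Among the members it called 3 lower (9.09%; Sfrp4, Sfrp2 and Wnt2), against 1.34% of all genes, and 0 higher, against 0.73%. In 8 members (24.2%) every Egr1-/- mouse was below every Egr1+/+ mouse, and in 1 (3.03%) every Egr1-/- mouse was above, where 8.1% and 8.15% of all genes were separated in these directions. Wnt6 is counted among the 7 lower members and among these 8, so neither count is free of the filter.

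**Figure D1:**
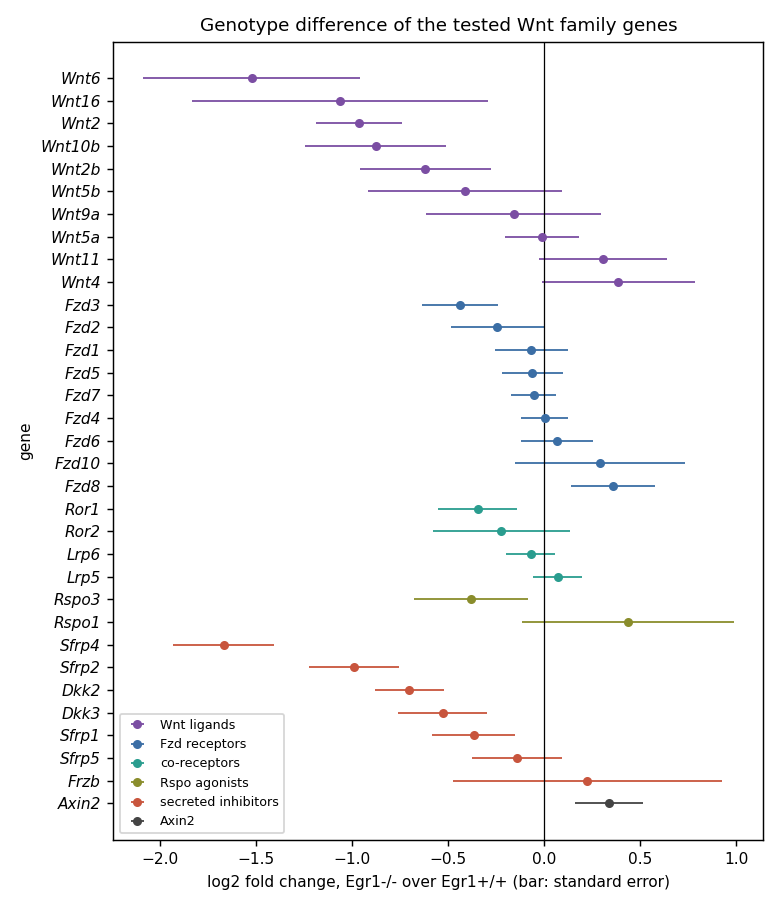
Log2 fold change of each tested member, Egr1-/- over Egr1+/+ mice, on the horizontal axis, with genes in rows coloured by class and bars for the standard error of the edgeR fit (3 mice per genotype). Sfrp4 (-1.67) and Wnt6 (-1.52, from a mean of 12 counts) lie farthest to the left, and Fzd4, Lrp5 and Lrp6 lie close to 0.

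Wnt5a and Wnt2 were the ligands with the highest level per length. Wnt5a, a ligand known mainly for signalling through Ror receptors, lies on chromosome 14 at 28504750-28527448 (GRCm38). It was at 16.6, 14.9 and 22.9 CPM in Egr1+/+ mice against 18.8, 14.4 and 20.9 CPM in Egr1-/- mice. The genotypes overlapped almost completely, with a log2 fold change of -0.01 (95% interval -0.44 to 0.42; adjusted p = 0.993 by the edgeR quasi-likelihood test). Scaled to exon length, mean Wnt5a was 2.32 CPM per kb in Egr1+/+ mice and 2.31 CPM per kb in Egr1-/- mice.

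Wnt2, which can activate the beta-catenin branch, lies on chromosome 6 at 17988940-18030585. It had 130, 139 and 200 counts in Egr1+/+ mice against 87, 73 and 53 in Egr1-/- mice, or 3.78, 4.63 and 4.64 CPM against 2.61, 2.36 and 1.71 CPM. Every Egr1-/- mouse was below every Egr1+/+ mouse. The log2 fold change was -0.96 ± 0.22 (SE, n = 3 per genotype; 95% interval -1.47 to -0.46), and the Benjamini-Hochberg adjusted p was 0.202 by edgeR and 0.0212 by DESeq2.

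Wnt10b, a ligand known to restrain adipogenesis, lies on chromosome 15 at 98770712-98778150. It was at 2.44, 2.70 and 3.39 CPM in Egr1+/+ mice against 2.31, 1.55 and 0.776 CPM in Egr1-/- mice, from 81 to 146 and from 24 to 77 counts. The groups were separated, but by a narrow margin between the lowest Egr1+/+ mouse and Egr1-/- replicate 1. Its log2 fold change was -0.88 ± 0.37 (SE; edgeR quasi-likelihood test, adjusted p = 0.441).

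Wnt6, another ligand of the family known to restrain adipogenesis, lies on chromosome 1 at 74771892-74785322 and was close to the limit of the filter on low counts, 0.311 CPM. It had 19, 19 and 17 counts in Egr1+/+ mice against 3, 10 and 4 in Egr1-/- mice. All 3 Egr1+/+ mice but only 1 Egr1-/- mouse exceeded that level, so Wnt6 was tested largely through the group in which it was higher. The log2 fold change of -1.52 ± 0.56 (SE) gave an edgeR adjusted p of 0.376.

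The other 6 tested ligands had log2 fold changes from -1.06 (Wnt16) to 0.39 (Wnt4), and none had an unadjusted p under 0.05. Wnt2b was at -0.62, Wnt5b at -0.41, Wnt9a at -0.16 and Wnt11 at 0.31. Over the 10 tested ligands the median log2 fold change was -0.51, with 8 lower and 2 higher, and it was -0.34 without Egr1+/+ replicate 2 and -0.21 without Egr1-/- replicate 2. The remaining 9 ligands, Wnt1, Wnt3, Wnt3a, Wnt7a, Wnt7b, Wnt8a, Wnt8b, Wnt9b and Wnt10a, had too few counts to be tested. Wnt7a had 4, 4 and 3 counts in Egr1+/+ mice and 0 in every Egr1-/- mouse. Wnt8b had 3, 17 and 2 counts against 0, 1 and 1, so that 1 Egr1+/+ mouse held most of its reads. Wnt3a and Wnt8a had a mean under 1 count and were hardly detected.

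**Figure D2:**
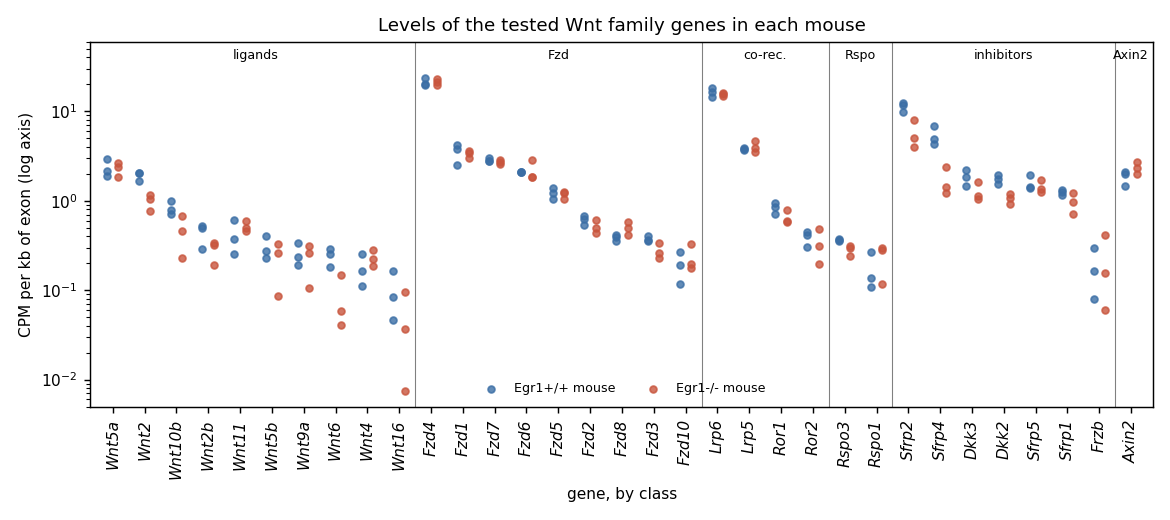
CPM per kb of exon on a log axis for each tested member in each mouse, with genes grouped by class and ordered by their mean in Egr1+/+ mice. Fzd4 (21.2 CPM per kb) and Lrp6 (16.3 CPM per kb) are the highest, followed by Sfrp2 (11.3 CPM per kb in Egr1+/+ mice).

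Fzd4 was the dominant Wnt receptor of this tissue and did not separate the genotypes. Fzd4, also the receptor for Norrin, lies on chromosome 7 at 89404355-89413134 and was at 137, 131 and 159 CPM in Egr1+/+ mice against 153, 133 and 142 CPM in Egr1-/- mice. Its log2 fold change was 0.00 (95% interval -0.28 to 0.28; edgeR quasi-likelihood test, adjusted p = 0.996), and -0.16 under total-count normalization, which moved the median of all genes to -0.15. It took 65.2% ± 2.16 (SD, n = 3) of the summed CPM per kb of the Fzd family in Egr1+/+ mice and 65.9% ± 1.02 in Egr1-/- mice. Fzd1, the next in level per length, was at 10.4, 16.0 and 17.5 CPM in Egr1+/+ mice against 15.1, 12.7 and 14.3 CPM in Egr1-/- mice. The groups overlapped, at means of 3.49 and 3.34 CPM per kb, with a log2 fold change of -0.07 (edgeR quasi-likelihood test, adjusted p = 0.932).

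Of the 9 tested Fzd genes 1 was separated in each direction (11.1%), near the 8.1% and 8.15% of all genes. Fzd3, a receptor known for planar cell polarity and axon guidance, was at 4.66, 5.19 and 4.50 CPM in Egr1+/+ mice against 4.29, 2.94 and 3.36 CPM in Egr1-/- mice, with a difference on the log2 scale of -0.44 ± 0.20 (SE). Fzd8 was at 2.44, 2.36 and 2.13 CPM against 3.45, 2.45 and 2.97 CPM, a log2 fold change of 0.36 ± 0.22 (SE). The adjusted p was 0.480 for Fzd3 and 0.619 for Fzd8 by the edgeR quasi-likelihood test. The other 5 tested receptors, Fzd2, Fzd5, Fzd6, Fzd7 and Fzd10, lay between -0.24 and 0.29, and Fzd9 was too low to test.

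Of the co-receptors, Lrp6 was at 198, 246 and 222 CPM in Egr1+/+ mice against 221, 201 and 214 CPM in Egr1-/- mice, with a difference on the log2 scale of -0.07 (95% interval -0.35 to 0.21). Lrp5 was at 37.0, 38.3 and 36.2 CPM against 45.5, 34.2 and 37.4 CPM, a log2 fold change of 0.07 (95% interval -0.21 to 0.36). The groups overlapped in both, and the adjusted p by the edgeR quasi-likelihood test was 0.885 for Lrp6 and 0.883 for Lrp5. Ror1 and Ror2, the receptor tyrosine kinases that bind Wnt5a, had log2 fold changes of -0.34 and -0.22, with adjusted p of 0.607 and 0.871 in the same edgeR test. Summed over each class, the Fzd receptors were at 32.4 ± 2.96 CPM per kb (SD, n = 3) in Egr1+/+ mice and 32.2 ± 2.61 in Egr1-/- mice, and the co-receptors at 21.3 ± 2.01 and 20.5 ± 1.56 CPM per kb.

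The R-spondins were low in both genotypes. Rspo3 had 38, 34 and 50 counts in Egr1+/+ mice against 32, 28 and 23 in Egr1-/- mice. Scaled to depth every Egr1-/- mouse was lower, with a log2 fold change of -0.38 ± 0.30 (SE; edgeR quasi-likelihood test, adjusted p = 0.717). Rspo1 had 18, 8 and 9 counts against 19, 17 and 7, and the groups overlapped, with a log2 fold change of 0.44 ± 0.55 (SE). Rspo2 and Rspo4 were too low to test.

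The largest differences among the well-detected members were in the Sfrp genes. Sfrp4, which encodes a secreted Frizzled-related protein that binds Wnt ligands, lies on chromosome 13 at 19623104-19632994. It had 709, 544 and 1222 counts in Egr1+/+ mice against 335, 159 and 183 in Egr1-/- mice, or 20.6, 18.1 and 28.3 CPM against 10.1, 5.13 and 5.92 CPM. Every Egr1-/- mouse was far below every Egr1+/+ mouse, and Egr1-/- replicate 1 was the highest of its group. The mean was 22.4 ± 5.33 CPM (SD, n = 3) against 7.03 ± 2.65 CPM. The log2 fold change was -1.67 ± 0.26 (SE; 95% interval -2.26 to -1.07), and the Benjamini-Hochberg adjusted p was 0.146 by edgeR and 1.12e-07 by DESeq2.

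Sfrp2, a related inhibitor expressed by fibroblasts, lies on chromosome 3 at 83766321-83774316. It had 866, 800 and 922 counts in Egr1+/+ mice against 579, 266 and 336 in Egr1-/- mice, or 25.21, 26.63 and 21.39 CPM against 17.38, 8.587 and 10.86 CPM. The groups were again separated, with Egr1-/- replicate 1 the nearest to the Egr1+/+ mice. The log2 fold change was -0.99 ± 0.23 (SE; 95% interval -1.52 to -0.46), and the Benjamini-Hochberg adjusted p was 0.208 by edgeR and 0.00309 by DESeq2. Without Egr1-/- replicate 1, the edgeR adjusted p was 0.0441 for Sfrp4 and 0.0484 for Sfrp2. That setting called 59 genes in all, against 3 in the main fit. Over all settings (edgeR, DESeq2 or limma-voom) the adjusted p ran from 6.94e-18 to 0.626 for Sfrp4. For Sfrp2 it ran from 1.66e-06 to 0.72. An antisense gene, Gm26771, overlaps 16.1% of the exon bases of Sfrp2, and it had between 10 and 46 counts in each mouse. Axin2, Fzd5, Fzd6, Rspo3, Wnt5a and Wnt11 also overlap genes of the opposite strand, over 3.16 to 17.8% of their exon bases. Whether counting used the strand is not given in the sources used here.

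The Dkk genes with enough counts were Dkk2 and Dkk3. Dkk2, an antagonist of Lrp5 and Lrp6, lies on chromosome 3 at 132085292-132180304 and was at 7.16, 5.69 and 6.45 CPM in Egr1+/+ mice against 4.02, 4.42 and 3.43 CPM in Egr1-/- mice. The groups did not overlap. Dkk2 had a log2 fold change of -0.70 ± 0.18 (SE), and the Benjamini-Hochberg adjusted p was 0.227 by edgeR and 0.0550 by DESeq2. Dkk3, a divergent member of the family, was at 4.89, 6.19 and 7.40 CPM against 5.49, 3.78 and 3.56 CPM. Its groups overlapped through Egr1-/- replicate 1, and the log2 fold change was -0.53 ± 0.23 (SE; edgeR quasi-likelihood test, adjusted p = 0.464).

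Sfrp1 was at 5.43 ± 0.36 CPM (SD, n = 3) in Egr1+/+ mice and 4.21 ± 1.09 CPM in Egr1-/- mice, with a difference on the log2 scale of -0.37. Sfrp5 had a log2 fold change of -0.14 and Frzb of 0.22, and in neither did the groups separate. Over the 7 tested inhibitors the median log2 fold change was -0.53, with 6 lower and 1 higher. Dkk1, Dkk4 and Wif1 were too low to test.

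**Figure D3:**
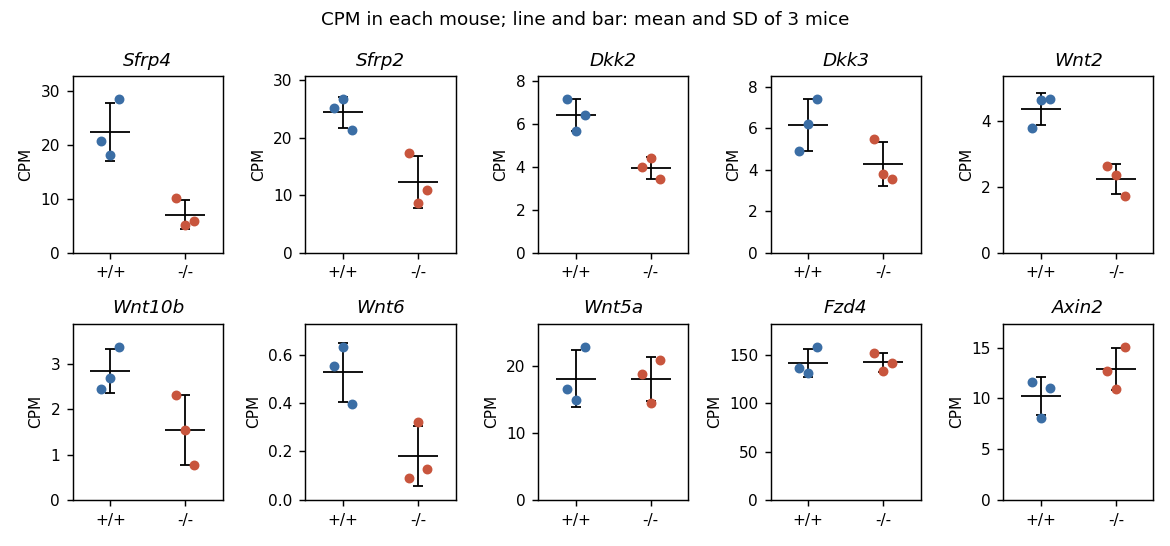
CPM of 10 members in each mouse, with 3 points per genotype and a line and bar for the mean and SD. The Egr1-/- mice lie below all Egr1+/+ mice for Sfrp4, Sfrp2, Dkk2, Wnt2, Wnt10b and Wnt6, overlap them for Dkk3 and Axin2, and are at the same level for Wnt5a and Fzd4.

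Summed over the class and scaled to exon length, the secreted inhibitors were at 23.3, 23.7 and 23.5 CPM per kb in the Egr1+/+ mice and at 16.6, 9.79 and 11.1 CPM per kb in the Egr1-/- mice. The Egr1+/+ mice were nearly equal, and each Egr1-/- mouse was lower. Sfrp2 and Sfrp4 together made up most of this difference, at 16.7 ± 0.0383 CPM per kb (SD, n = 3) against 7.39 ± 2.75, while the other inhibitors summed to 6.80 ± 0.162 and 5.12 ± 0.878 CPM per kb. The small SD of the pair in Egr1+/+ mice understates the spread between mice, because the 2 genes offset each other there. Alone, Sfrp2 was at 11.7, 12.4 and 9.93 CPM per kb (SD 1.26) in these mice and Sfrp4 at 4.94, 4.33 and 6.78 (SD 1.28). Sfrp4 took 22.8% of the inhibitor sum in Egr1+/+ mice and 13.3% in Egr1-/- mice, and Sfrp2 48.3% and 44.9%.

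The ligands summed to 6.05, 7.48 and 8.36 CPM per kb in Egr1+/+ mice and to 6.26, 4.91 and 5.38 CPM per kb in Egr1-/- mice, and the groups overlapped. Within this sum Wnt5a went from 31.9% ± 5.53 (SD, n = 3) to 41.9% ± 6.73, and Wnt2 from 26.6% ± 1.73 to 17.97% ± 3.60. The ratio of inhibitors to ligands was 3.85, 3.16 and 2.82 in Egr1+/+ mice against 2.65, 1.99 and 2.07 in Egr1-/- mice. Each Egr1-/- mouse had a lower ratio than each Egr1+/+ mouse, but with 3 mice against 3 no two-sided exact permutation test can give a p below 0.1.

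**Figure D4:**
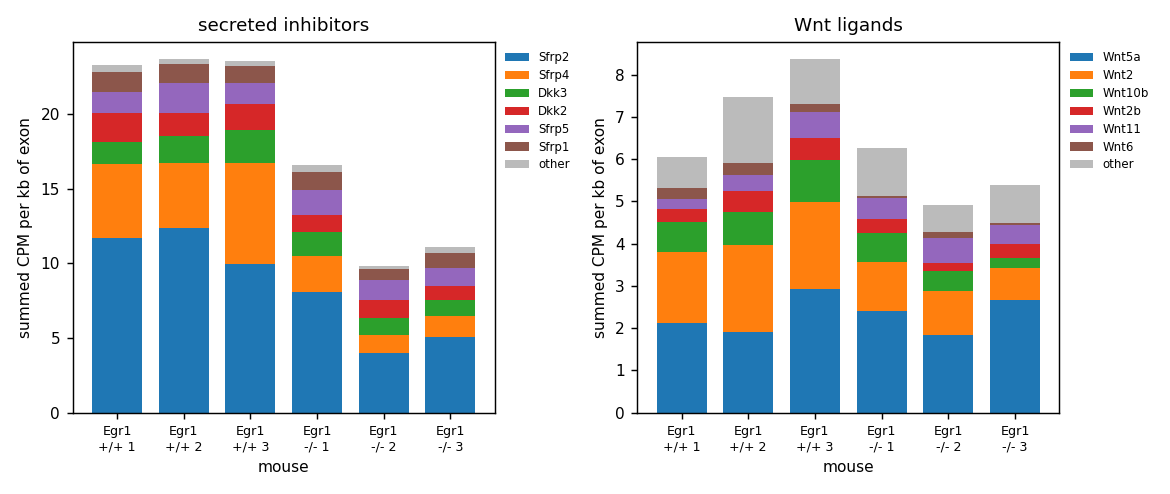
Stacked bars of CPM per kb of exon summed over the secreted inhibitors (left) and the Wnt ligands (right), 1 bar per mouse, split by gene. The inhibitor bars of Egr1-/- mice (9.79 to 16.6) are shorter than those of Egr1+/+ mice (23.3 to 23.7), mainly in the Sfrp2 and Sfrp4 segments.

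Axin2 encodes a scaffold of the beta-catenin destruction complex and is a widely used target gene of beta-catenin. It lies on chromosome 11 at 108920349-108950783. It had 398, 242 and 474 counts in Egr1+/+ mice against 424, 340 and 467 in Egr1-/- mice, or 11.6, 8.06 and 11.0 CPM against 12.7, 11.0 and 15.1 CPM. The groups overlapped slightly. Axin2 had a log2 fold change of 0.34 ± 0.18 (SE; 95% interval -0.06 to 0.74; edgeR quasi-likelihood test, adjusted p = 0.560). Without both mice richest in muscle markers it was 0.07.

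The rest of the pathway was read from 6 lists written by role, of which 83 genes were tested. No gene was called by the edgeR quasi-likelihood test. At an unadjusted p under 0.05, 8.43% (7 genes) were lower, against 5.6% of all genes, and 2.41% (2 genes) higher, against 5.06%. DESeq2 called 2 lower (2.41%), against 1.34% of all genes. The median log2 fold change was -0.05. Those called by DESeq2 were Gpc3, a cell surface glypican, and Apcdd1, a membrane inhibitor of Wnt signalling that is itself a target of beta-catenin.

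The list of surface regulators held 21 tested genes, of which 4 (19.0%) were lower at an unadjusted p under 0.05, against 5.6% of all genes. Gpc3 was at 58.2, 63.4 and 67.3 CPM in Egr1+/+ mice against 51.9, 37.5 and 39.6 CPM in Egr1-/- mice, with a difference on the log2 scale of -0.55 ± 0.14 (SE). Apcdd1 was at 42.41, 37.39 and 53.63 CPM against 34.58, 28.25 and 25.25 CPM, a log2 fold change of -0.60 ± 0.17 (SE). In both genes the genotypes were separated, and the adjusted p was 0.229 for Gpc3 and 0.252 for Apcdd1 by edgeR, against 0.0288 and 0.0403 by DESeq2. The other 2 were Cthrc1, a secreted glycoprotein that promotes Wnt-Ror signalling (-0.89), and the Wnt co-receptor Ryk (-0.28).

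Among 16 tested beta-catenin targets, Apcdd1 and Nkd1 were lower at an unadjusted p under 0.05 (12.5%, against 5.6% of all genes) and none was higher (against 5.06%). Nkd1, an antagonist of Dishevelled, was at 8.002 ± 1.87 CPM (SD, n = 3) in Egr1+/+ mice and 5.24 ± 0.627 CPM in Egr1-/- mice, with a difference on the log2 scale of -0.61 ± 0.20 (SE). The target list had a median of -0.11, and neither Axin2 nor these genes passed the adjusted threshold in edgeR. Lef1 and Tcf7, nuclear partners of beta-catenin that lymphocytes also express, were highest in Egr1-/- replicate 2, with 36.0 and 35.3 CPM. Summed lymphocyte markers were highest in the same mouse, 240 CPM against 119 to 131 CPM in Egr1+/+ mice, and their part in these values was not tested.

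The 15 tested genes of the nuclear complex had a median of -0.02 and none with an unadjusted p under 0.05. Ctnnb1, which encodes beta-catenin, was at 261 ± 13.3 CPM (SD, n = 3) in Egr1+/+ mice and 238 ± 33.7 CPM in Egr1-/- mice. In the destruction complex and Dishevelled list (19 tested, median 0.08), 6 genes were lower and 13 higher. Only the kinase Csnk1e (-0.29) was lower at an unadjusted p under 0.05 (5.26%, against 5.6% of all genes). Of 5 genes of Wnt secretion (median 0.0012), 2 were lower and 3 higher. Only the cargo receptor Tmed5 (0.28) was higher at that level, against 5.06% of all genes. Of 13 genes of planar cell polarity and Wnt5a-Ror signalling (median -0.10), 9 were lower and 4 higher. At that level Daam2 was lower (-0.29) and Prickle3 higher (0.38), 7.69% in each direction, against 5.6% and 5.06% of all genes.

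Markers of stromal progenitors, the fibroblast-like cells that give rise to adipocytes, were also lower in Egr1-/- SC-WAT. Of these 12 markers, 11 were lower at an unadjusted p under 0.05 (91.7%, against 5.6% of all genes) and 10 were separated (83.3%, against 8.1%), with a median log2 fold change of -0.65. DESeq2 called 9 of the 12, all lower, against 1.34% of all genes. Their sum was 4564 to 5330 CPM in Egr1+/+ mice and 2706 to 3729 CPM in Egr1-/- mice. Col3a1 alone averaged 3008 CPM of the mean sum of 4926 CPM in Egr1+/+ mice, so the sum mainly follows collagen RNA. The paper counts Col1a1, Col14a1 and Dcn, also on this list, among matrix genes lowered in Egr1-/- SC-WAT. Of the less abundant markers, mean Pdgfra was 97.0 against 69.7 CPM, Cd34 167 against 102 CPM and Dlk1 2.39 against 2.82 CPM. In bulk tissue fewer cells of a type and less RNA per cell cannot be told apart. Egr1-/- replicate 1 had the highest marker sum of its group, 75.7% of the Egr1+/+ mean, and also the highest Sfrp2 (71.2%) and Sfrp4 (45.0%). In replicates 2 and 3 the marker sum was 54.9% and 61.3%, Sfrp2 was 35.2% and 44.5%, and Sfrp4 was 23.0% and 26.45%. Replicate 1 was also the highest Egr1-/- mouse for the macrophage (77.5%), Schwann cell (77.4%) and white adipocyte (87.9%) sums. The same held for the endothelial (122%), mural (106%) and epithelial (116%) sums, but not for the beige, lymphocyte or muscle sums. This order of the mice was therefore not particular to stromal markers. The part of the stromal cells in the Sfrp values was not tested.

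Other cell types varied as well. Macrophage markers summed to 325 to 448 CPM in Egr1+/+ mice and 251 to 302 CPM in Egr1-/- mice, with 5 of 6 lower at an unadjusted p under 0.05 (83.3%, against 5.6% of all genes), and Schwann cell and nerve markers to 235 to 336 CPM and 162 to 208 CPM. White adipocyte markers summed to 6998 to 7893 CPM against 5516 to 6435 CPM, and the adipocyte identity of the tissue was plain in every mouse. Beige and brown adipocyte markers were higher, at 521 to 668 CPM against 920 to 1539 CPM, with all 6 tested at an unadjusted p under 0.05, against 5.06% of all genes. No beige, macrophage or stromal marker passed the adjusted threshold of the edgeR test. DESeq2 called 5 of the 6 tested beige markers higher, against 0.73% of all genes, and 2 macrophage markers lower (33.3%, against 1.34%). The sums of endothelial (392 to 494 and 364 to 542 CPM) and mural markers (451 to 648 and 378 to 581 CPM) overlapped between genotypes. Single markers did separate. Mural Cspg4 (0.65; DESeq2 adjusted p = 0.0297) and endothelial Vwf (0.36) were higher in every Egr1-/- mouse, and endothelial Tek (-0.44) was lower in every one. The other markers of both lists overlapped. Mammary and skin epithelial markers summed to at most 14.8 CPM in any mouse.

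**Figure D5:**
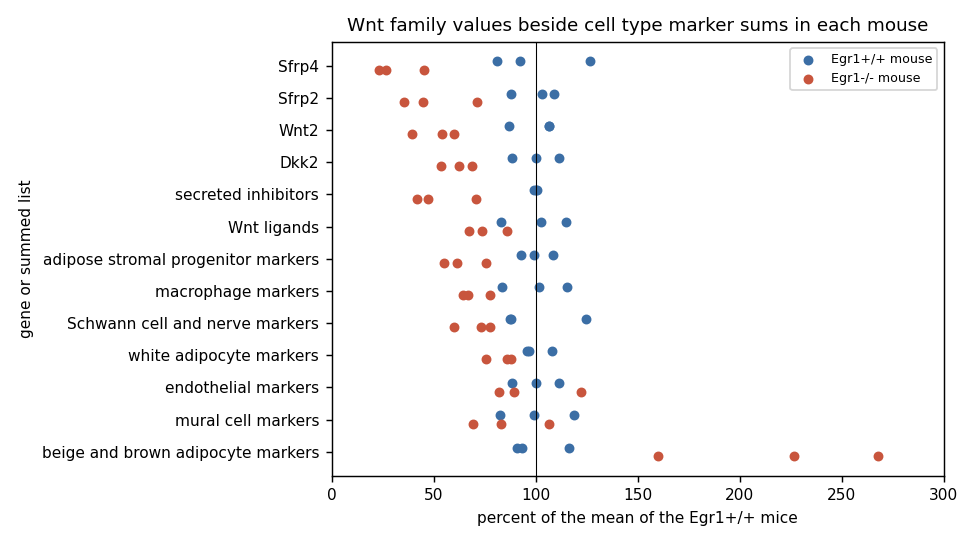
Values in each mouse as a percent of the Egr1+/+ mean, for 4 members, the inhibitor and ligand sums and 7 sums of cell type markers, 1 point per mouse. The Egr1-/- mice lie below 100% for Sfrp4, Sfrp2 and the stromal progenitor markers, with replicate 1 highest for these 3, and above 100% for the beige and brown markers. Replicate 1 is also the highest Egr1-/- mouse for the macrophage, Schwann cell, white adipocyte, endothelial and mural sums. The stromal sum is mainly Col3a1, and Fabp4 is the largest part of the white adipocyte sum.

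Because Egr1 is a DNA-binding factor, the promoters of the members were searched for its core motif, GCGNGGGCG, on both strands. RefSeq windows of 300 bases, 250 before to 50 after the start (GRCm38.p6), were available for 32 members. The motif was in 9 of these (28.1%), against 6.27% of 27025 genes. The member windows were rich in G and C, with a median of 69.0% against 52.7% over all windows, and among windows with at least 60% G and C the motif was in 32.1% of 28 member windows and 16.6% of 9690 windows. Sites upstream of 5 tested members follow with the motif, or its reverse complement, in capitals, 5′ to 3′ on the strand of the gene, since they let the sequence be set beside the values above.
Wnt2 (chr6:18030619-18030647, minus strand, 192 bases upstream): gtgccccctaCGCCCCCGCccggcgtagg
Wnt2b (chr3:104961811-104961839, minus strand, 120 bases upstream): acccgggctgGCGCGGGCGgagccgcgct
Wnt9a (chr11:59306828-59306856, plus strand, 92 bases upstream): ctcctccgggGCGCGGGCGggccgagccc
Fzd4 (chr7:89404324-89404352, plus strand, 32 bases upstream): cgtcccgcccCGCCCCCGCcctgcgaacc
Fzd10 (chr5:128600935-128600963, plus strand, 161 bases upstream): ggtccgcgatCGCCCGCGCccggaagaag

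For the members printed here the log2 fold change was -0.96 (Wnt2, separated), -0.62 (Wnt2b), -0.16 (Wnt9a), 0.00 (Fzd4) and 0.29 (Fzd10). No window was at hand for Sfrp4, which was therefore not searched. The windows of Sfrp2, Dkk2, Wnt10b and Axin2 held no match of these letters. The TCF/LEF core CTTTGA was in 6 of the 32 member windows (18.8%), against 18.2% of genes. A match describes the sequence only, and binding was not measured in these files.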

How the data were processed

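Inguinal SC-WAT from 3 Egr1+/+ and 3 Egr1-/- mice was profiled by RNA sequencing after ribosomal RNA depletion, with 1 strand-specific library per mouse. The authors mapped reads to GRCm38 (mm10) with TopHat2 and Bowtie2, assigned them to GENCODE genes with featureCounts and deposited raw counts per gene, without normalization. The strand and multimapping settings are not given in the sources used here, so overlapping and antisense genes are uncertain. Genotypes came from the sample labels. The members and lists were chosen with earlier results of these data known.

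Genes were named through GENCODE M21 by identifier without version, which matched 46488 of 47069. Counts were fitted in R 4.3.3 with edgeR 4.0.16 (TMM, filterByExpr, quasi-likelihood test) over 17667 genes, with Benjamini-Hochberg adjustment over all of them at 0.05 and no covariate. Standard errors were derived from the F statistic of each fit. CPM used TMM library sizes, and CPM per kb the union of exons. DESeq2 1.42.0, limma 3.58.1 voom, total-count normalization, other filters, a replicate block and leaving out mice served as alternatives. The fits were tested on simulated data. Some mice shared a litter, and p-values measure the spread between these mice. Members with an unadjusted p under 0.05, with separated genotypes, or among the 2 highest per class in CPM per kb were given per mouse, and up to 4 genes of each other list were named.

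At 29661984 to 42357981 counts per mouse, the 15 untested members had at most 17 counts in any mouse. Intervals cover the fitted spread between mice. A further promoter match is not reported here.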

Additional observations from a re-analysis of the deposited data

How the results depend on the processing

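Sfrp4, Sfrp2, Dkk2, Wnt2, Wnt10b and Wnt6 stayed lower under every alternative run. Of 528 member values under alternatives, 489 kept direction and side of the threshold, 10 gained a call and 29 changed sign. No member was called in the main fit, so none could lose a call. The number of members called, 0 in edgeR, was 3 in DESeq2, 2 under total-count normalization, 3 without a filter on low counts and 0 to 2 when leaving out 1 mouse, the 2 being Sfrp4 (edgeR adjusted p = 0.0441) and Sfrp2 (0.0484) without Egr1-/- replicate 1. These settings also called more genes of the whole series. Over all genes the calls numbered 3 in edgeR, 366 in DESeq2, 79 under total-count normalization, 552 without a filter and 59 without Egr1-/- replicate 1. Lower members at an unadjusted p under 0.05 numbered 4 to 10 on leaving out 1 mouse, 4 without Egr1+/+ replicate 2 or Egr1-/- replicate 3, and 4 without both, the mice richest in muscle markers, an alternative chosen after seeing the data. Higher ones numbered 1 without a filter, 1 with the replicate block and 0 to 1 leaving out 1 mouse. Other pathway genes called numbered 2 in DESeq2 and 4 without a filter. Total-count normalization moved the median of all genes to -0.15, that of the Fzd receptors to -0.21 (leaving out 1 mouse, -0.10 to 0.0653), Fzd4 to -0.16, Fzd6 to -0.12 and Lrp5 to -0.0939. Without a filter the R-spondin median was -0.57 and Wnt5a 0.0013. Without both muscle-rich mice the values were Frzb -0.75, Fzd4 -0.0478, Fzd5 0.0017, Lrp6 0.0020 and Sfrp5 0.12, and Axin2 0.07. Leaving out 1 mouse gave Frzb -0.70 to 0.79, Fzd1 -0.27 to 0.0831, Fzd10 -0.0284 to 0.58, Fzd4 -0.0501 to 0.0865, Fzd5 -0.17 to 0.0493, Fzd6 -0.18 to 0.18, Lrp5 -0.0519 to 0.16, Lrp6 -0.16 to 0.01, Ror2 -0.59 to 0.0443, Sfrp5 -0.29 to 0.0335, Wnt5a -0.13 to 0.19 and Wnt9a -0.47 to 0.18. Egr1 passed the threshold at -2.19 in DESeq2, -2.39 under total-count normalization, -2.18 without a filter and -2.35 without Egr1-/- replicate 1 (leaving out 1 mouse, -2.39 to -1.84). The causes were not tested. Same-numbered mice did not deviate together (correlations -0.09, 0.11 and -0.12). These values show no pairing by number, but they cannot exclude that a numbered pair shared a litter. With the replicate block Egr1 was -2.14, 6 members were lower at an unadjusted p under 0.05, the family median was -0.21, and Sfrp4 -1.70 and Sfrp2 -1.04 kept their side of the threshold.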
